A study of Mus musculus with 2 samples.

Results

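The genes described are 40 of the 32285 genes in the deposited count files: 18 that act in DNA replication and 22 that act in mitosis. They were taken by symbol, and all 40 were found once each. RNA was read by droplet single-cell sequencing from subcutaneous tumours of CMT167R cells in C57BL/6 mice. CMT167R is labelled anti-PD1 resistant and of genotype WT, and derives by name from CMT167, a lung carcinoma line of the mouse. Per mouse 1000000 cells were injected. Control mice received solvent, while the others had daily intraperitoneal doses of 3 mg/kg of an agent named only as PKCi. Collection was timed to control tumours of 400 mm3, and the labels state that volumes then differed between groups. Each group has 1 library, with the number of tumours behind it not given in the sources used here. Differences between the libraries therefore have no replicate check, and the intervals given cover counting error only.

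Before a cell divides it copies its DNA. The MCM proteins Mcm2 to Mcm7 form the helicase that opens the double helix, loaded at origins with the help of Cdc6 and switched on by Cdc45 and the GINS complex, of which Gins2 is a part. Pcna is the clamp that holds polymerases on DNA, Pclaf binds Pcna, Fen1 trims Okazaki fragments, and Tyms, Rrm1, Rrm2 and Dut make or guard the supply of deoxynucleotides. Uhrf1 and Hells act in keeping DNA methylation and chromatin through replication. Mitosis is driven by Cdk1 with its cyclins Ccna2, Ccnb1 and Ccnb2, by the kinases Plk1, Aurka, Aurkb, Bub1 and Bub1b, by the motors and spindle proteins Kif11, Kif20b, Cenpe, Tpx2 and Nusap1, and by the exit factors Cdc20 and Ube2c. Mki67, Top2a, Smc4, Cenpf and Hmgb2 act on chromosomes, and Cks2 binds Cdk1. Replication genes are known as targets of E2F factors and mitosis genes as targets of complexes that bind the CHR element, often with CCAAT boxes that bind NF-Y.

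Promoters are shown because the choice of members did not use their sequence. RefSeq promoters on GRCm38.p6, from 250 bases before to 50 after the start site, were matched by symbol for 34 of the 40 members, 16 replication and 18 mitosis. Not matched were Mcm4, Gins2, Ccna2, Aurkb, Tpx2 and Smc4. An E2F word (TTTCCCGC, TTTGGCGC, TTTCGCGC or TTTGCCGC, either strand) was in 8 of the 19 promoters of replication members, in 1 of the 18 promoters of mitosis members, that of Cdk1, and in 2.26% of all 32851 promoters of this length. A CHR word (TTTGAA, either strand) was in 3 of 19 replication and 13 of 18 mitosis promoters, and in 17.9% of all promoters. CCAAT, on either strand, was in 13 of 19, in 16 of 18 and in 37.4%, and CHR together with CCAAT in 2 of 19, in 12 of 18 and in 6.95%. A match describes letters in this window and shows no binding. The 150 bases before the start site are given for 2 replication and 3 mitosis members, 5′ to 3′ on the gene's strand, with the words in capitals. None of these windows overlaps an exon of GENCODE M21. Mcm6 lies at chr1:128359706-128359855 (minus strand), and its first pair of E2F words overlap. Mcm5 lies at chr8:75109359-75109508 (plus strand), where a further E2F word begins before the window.
Mcm6: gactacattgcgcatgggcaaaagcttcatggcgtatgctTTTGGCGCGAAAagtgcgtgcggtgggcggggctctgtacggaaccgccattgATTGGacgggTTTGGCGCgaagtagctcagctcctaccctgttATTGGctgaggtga
Mcm5: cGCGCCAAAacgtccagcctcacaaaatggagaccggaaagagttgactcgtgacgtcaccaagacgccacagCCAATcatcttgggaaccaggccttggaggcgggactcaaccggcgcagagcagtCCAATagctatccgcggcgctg
The mitosis members Top2a at chr11:99024190-99024339 (minus strand), Hmgb2 at chr8:57511693-57511842 (plus strand) and Kif11 at chr19:37376232-37376381 (plus strand) each hold a CHR word within 30 bases of the start site.
Top2a: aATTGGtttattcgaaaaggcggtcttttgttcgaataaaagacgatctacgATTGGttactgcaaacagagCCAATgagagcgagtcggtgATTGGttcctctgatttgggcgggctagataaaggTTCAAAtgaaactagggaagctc
Hmgb2: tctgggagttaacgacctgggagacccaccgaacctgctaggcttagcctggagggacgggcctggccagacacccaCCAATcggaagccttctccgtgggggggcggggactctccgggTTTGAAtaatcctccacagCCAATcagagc
Kif11: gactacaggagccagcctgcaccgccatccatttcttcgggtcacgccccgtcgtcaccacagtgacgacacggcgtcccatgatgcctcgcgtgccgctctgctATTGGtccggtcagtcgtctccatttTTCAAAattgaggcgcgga
Cdk1, which binds cyclins of both phases, was the 1 member in which an E2F word, a CHR word and CCAAT stood together.

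The libraries held 222641855 (control) and 229219749 (PKCi) unique molecular identifiers (UMIs, each a count of 1 captured RNA molecule), and 6270 and 7078 cells were kept, with medians of 32987.5 and 29528.5 UMIs. The files shared 20 barcode sequences. Cells were grouped without 251 listed cell cycle and histone genes and named from markers. The main population held 4907 control and 5382 PKCi cells and expressed Krt8 at 380 and 482 and Rhox5 at 540 and 469 UMIs for each 1000000 of the class (CPM), while the epithelial gene Epcam had 1 UMI in each library, so the population is called by its Krt8 and Rhox5 and not as carcinoma. The other named classes were macrophage-like (243 and 546 cells), monocyte-like (494 and 447), neutrophil-like (276 and 170), T-like (64 and 119), NK-like (36 and 51), dendritic-like (27 and 67), endothelial-like (34 and 51) and fibroblast-like (24 and 26).

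Replication and mitosis RNA was highest in the main population, when each list is summed, and several other classes held it above the free-RNA benchmark. In a droplet experiment, RNA released by broken cells gives every cell some counts of genes it does not express. The level of Krt8 or Rhox5, whichever was higher relative to the main population, served as that benchmark and lay between 7.26% and 26.8% of the main population's level in the host classes. The summed replication members reached 1763 CPM in the control and 1701 CPM in the PKCi main population, and the summed mitosis members 3498 and 3443 CPM. T-like cells came next for mitosis members in the control library, at 76.2% of the main population's level, and 60.8% in the PKCi library. Endothelial-like cells stood at 69.2% and 36.9%, NK-like cells at 47.8% and 41.5%, and macrophage-like cells at 43.0% and 32.4%. Monocyte-like cells, at 16.7% and 17.4%, and fibroblast-like cells, at 18.3% in the control library, were low. Dendritic-like cells differed most between the libraries, at 9.73% in the control and 58.9% in the PKCi library, from 27 and 67 cells. In T-like cells Hmgb2 alone gave 1194 of 2665 CPM in the control and 758 of 2094 CPM in the PKCi library. The top T-like cell held 17.6% and 19.1% of the mitosis UMIs, and the part of either in the rank was not tested. The fibroblast-like benchmark was 15.3% and 20.7%, and 31 of the 40 members exceeded it in neither library, so their level cannot be told apart from free RNA.

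**Figure D1:**
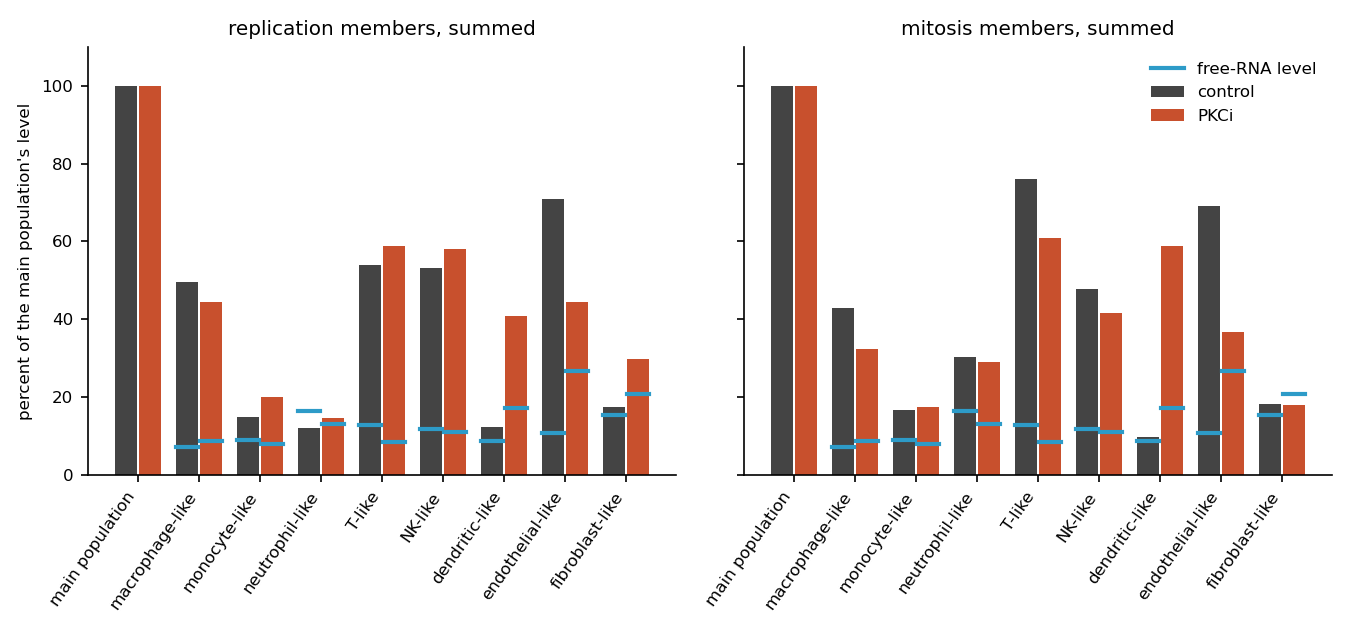
Summed level of the 18 replication members (left) and 22 mitosis members (right) in each class (horizontal axis) as a percent of the main population's level in the same library (vertical axis). Bars are the control (dark) and PKCi (orange) libraries, 1 library each, and blue lines the level that free RNA from the main population could give. Macrophage-like, T-like and NK-like bars stand well above their lines in both libraries, and fibroblast-like bars stand near them.

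In the main population the members differed little between the libraries. None of the 18 replication and none of the 22 mitosis members differed by at least 1.5 times with an interval apart from 1, a size that 3.83% of 17680 genes passed upward and 5.05% downward in these cells. The median log2 ratio of PKCi over control was -0.04 for replication (from -0.13 to 0.08) and -0.02 for mitosis members (from -0.23 to 0.09), beside -0.03 for all genes. Among helicase subunits, Mcm5 stood at 68.8 CPM in the control and 62.7 CPM in the PKCi library, the lowest replication ratio at 0.911 (0.890 to 0.933), and Mcm2 at 39.2 and 41.4 CPM, the highest at 1.06 (1.02 to 1.09). The chromatin helicase Hells was at 104 and 95.2 CPM, and the clamp Pcna, on chromosome 2 from 132249162 to 132253314, at 197 and 181 CPM. Cdc6 at 17.9 and 16.8 CPM was the last of the 4 lowest ratios. Cdc45, at 31.0 and 32.7 CPM, Mcm4, at 68.1 and 68.7 CPM, and Gins2, at 40.6 and 40.9 CPM, followed Mcm2 at the upper end. Counting intervals were narrow at these depths, and 14 of 18 replication ratios lay below 1.

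The mitosis members of the main population spread slightly more. The spindle kinase Aurka, on chromosome 2 from 172356190 to 172370535, stood at 35.8 and 30.5 CPM, a ratio of 0.852 (0.824 to 0.882), the lowest of the 40. Mki67, the marker of cycling cells, had 161 CPM in the control and 142 in the PKCi library (ratio 0.879, 0.866 to 0.893), the checkpoint kinase Bub1 at 44.4 and 40.3 CPM and Ccnb2 at 79.0 and 71.7 CPM. At the other end stood the kinetochore motor Cenpe, at 108 and 115 CPM and a ratio of 1.07 (1.05 to 1.09). Cenpf, at 172 and 182 CPM, Ube2c, at 235 and 248 CPM, and Kif11, at 58.3 and 60.7 CPM, were the next highest. The 2 members with the most UMIs were the chromosomal protein Hmgb2, at 806 and 800 CPM, and the topoisomerase Top2a, at 486 and 454 CPM. Every member of the main population was within 1.17 times of its level in the other library.

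**Figure D2:**
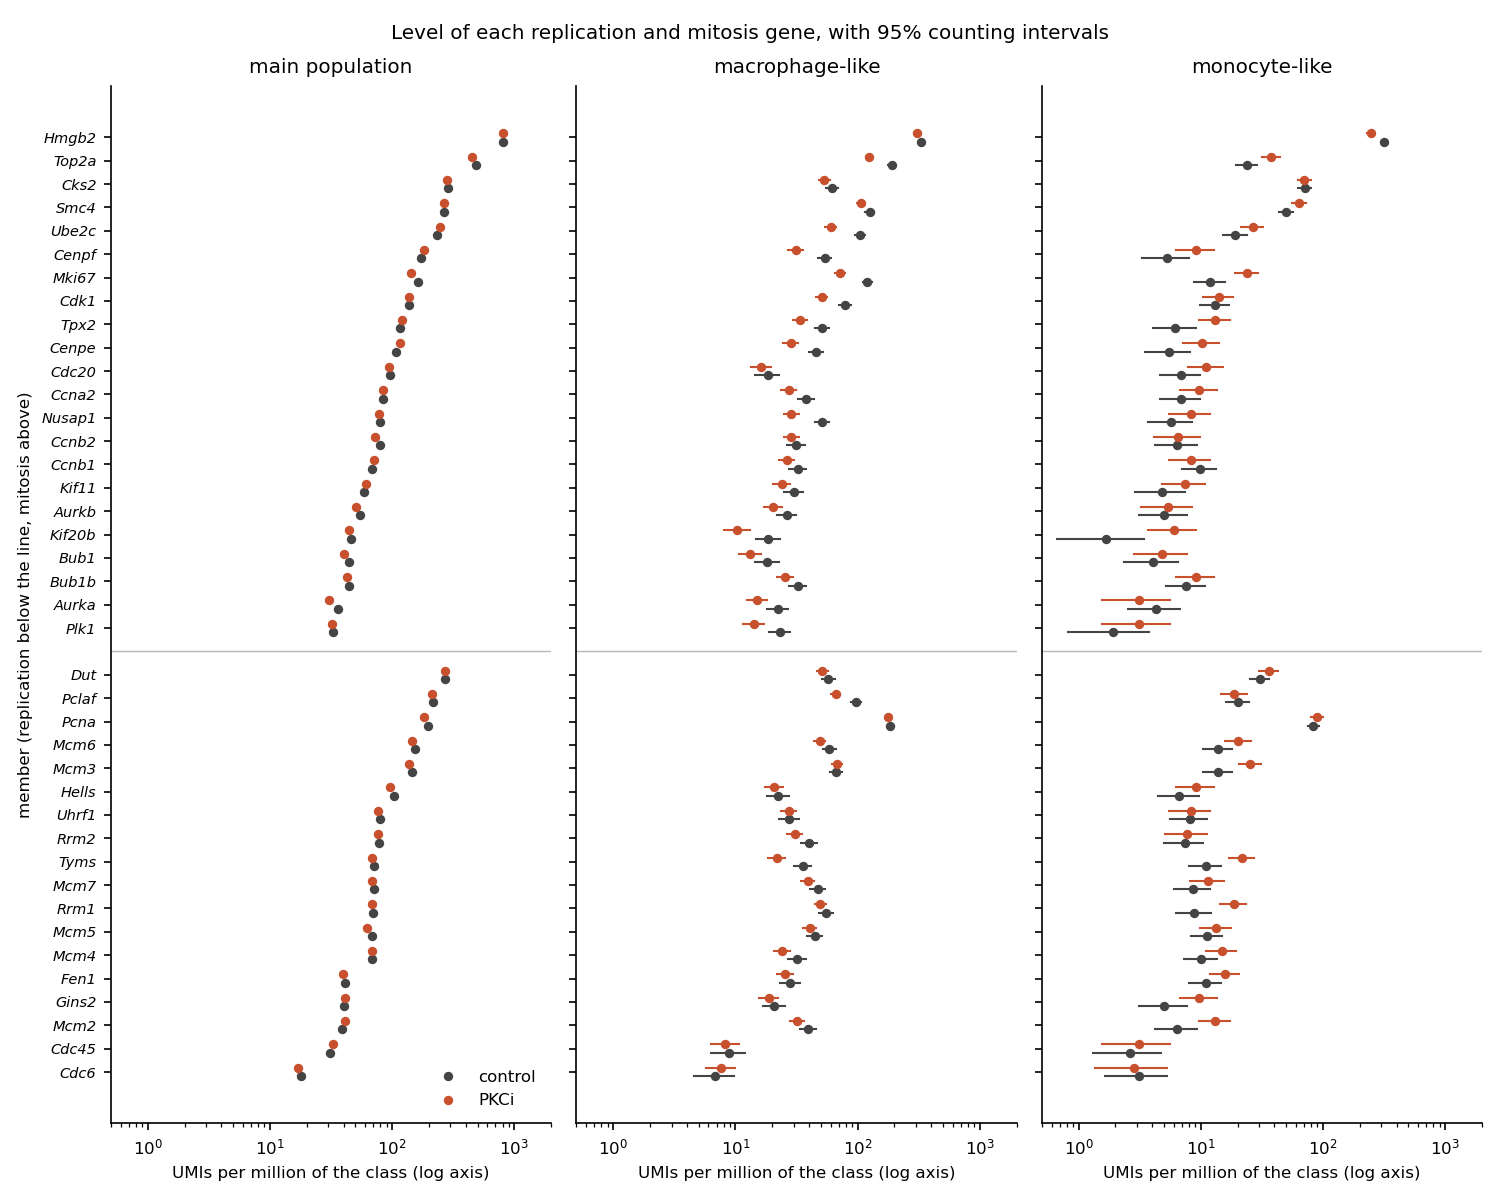
Level of each of the 40 members (vertical axis, ordered by control level in the main population, replication below the grey line and mitosis above) in CPM (log axis) in the main population, macrophage-like and monocyte-like cells. Points are the control (dark) and PKCi (orange) libraries and bars their exact 95% counting intervals, smaller than the points in the main population, where Hmgb2 stands at 806 and 800.

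Most cells of the main population carried RNA of both lists. After each cell was thinned to 5000 UMIs, which left out 50 control and 206 PKCi cells, at least 3 replication members were detected in 78.5% (77.3 to 79.6) of the 4857 control cells left and in 76.8% (75.6 to 78.0) of the 5176 cells of the PKCi library. At least 3 mitosis members were detected in 80.0% (78.8 to 81.1) and 78.5% (77.3 to 79.6). The differences were -1.65 points (-3.28 to -0.02) and -1.53 points (-3.12 to 0.06). Without thinning, the shares were 98.2% and 95.7% for replication and 98.4% and 97.0% for mitosis members. For comparison, neutrophil-like cells, a type that does not divide once mature, with far fewer UMIs per cell (medians 3277.5 and 1998, beside 38142 and 35245.5), reached 5.43% and 4.12% for replication and 18.1% and 17.1% for mitosis members without thinning. The 54 control neutrophil-like cells deep enough to be thinned to 5000 UMIs gave 13.0% (5.37 to 24.9) and 35.2% (22.7 to 49.4), and just 2 PKCi cells were as deep. The mitosis members Hmgb2 and Cks2 were expressed in this class and count toward its mitosis shares. The thinned replication share went the other way at 3000 UMIs per cell (0.68 points), so no direction is read from it.

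Counting both lists in each thinned cell, 69.6% of control and 68.2% of PKCi cells had at least 3 members of both, 8.87% and 8.66% of replication alone, 10.4% and 10.3% of mitosis alone, and 11.1% and 12.9% of neither. The share with neither was 1.75 points higher in the PKCi library (0.47 to 3.02), and 0.996 points higher without thinning (0.616 to 1.39). It was not recomputed at other depths or numbers of members, so no direction is read from it. Cells with both had the most RNA: a median of 42772 UMIs in the control and 40808 in the PKCi library before thinning, against 27465 and 23732 in cells with neither. Cells with replication alone (31428 and 29750) and with mitosis alone (27825 and 28505) lay between, in both libraries. Cells with no member detected at 5000 UMIs numbered 16 of 4857 and 23 of 5176.

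Cell cycle RNA was unequal among the clusters of the main population, which were formed without the listed cell cycle genes. Other genes that followed the member counts, such as Ube2s and Tubb5, were not left out, so the clusters may not be independent of the cell cycle. In the 9 clusters with at least 100 cells in each library, the thinned share with at least 3 replication members ran from 43.7% to 91.1% in the control and from 44.8% to 94.5% in the PKCi library. The lowest in both was cluster 9, led by Ptn, Sema3a and Dlg2, with 679 and 989 cells, where mitosis members were found in 51.7% and 49.8%. Cluster 4, led by Prxl2a, Mmp3 and Crabp1, with 491 and 173 cells before thinning, came next for mitosis at 66.5% and 59.5%. Clusters 3, 5 and 6 lay between 87.5% and 96.5% for both lists in both libraries. Within these 9 clusters the replication share was lower in the PKCi library in 6 and higher in 3, and the mitosis share likewise. Averages weighted by control cells took in all 12 clusters, also those with fewer cells. The average difference was -0.54 points for the replication and -1.20 points for the mitosis share. In the smallest, cluster 17.0, with 18 control and 12 PKCi cells, the replication share was 83.3% and 36.4%.

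Members varied from cell to cell along with their own list. Over the thinned cells of the main population, the median Pearson correlation of log counts was 0.12 in the control and 0.13 in the PKCi library for the 153 pairs of replication members, and 0.24 and 0.22 for the 231 pairs of mitosis members. Across the lists it was 0.04 in both over 396 pairs. These are descriptions over cells that share a library, and their size depends on depth: at 10000 UMIs the control values were 0.21, 0.35 and 0.071. Every member's median correlation with its own list was above that with the other list, for 18 of 18 and 22 of 22 members in each library. The strongest pair was Top2a with Hmgb2 (0.54 and 0.52), followed by Top2a with the condensin subunit Smc4 (0.50 and 0.48). The lowest was Mcm4 with Ube2c (-0.09 and -0.07).

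**Figure D3:**
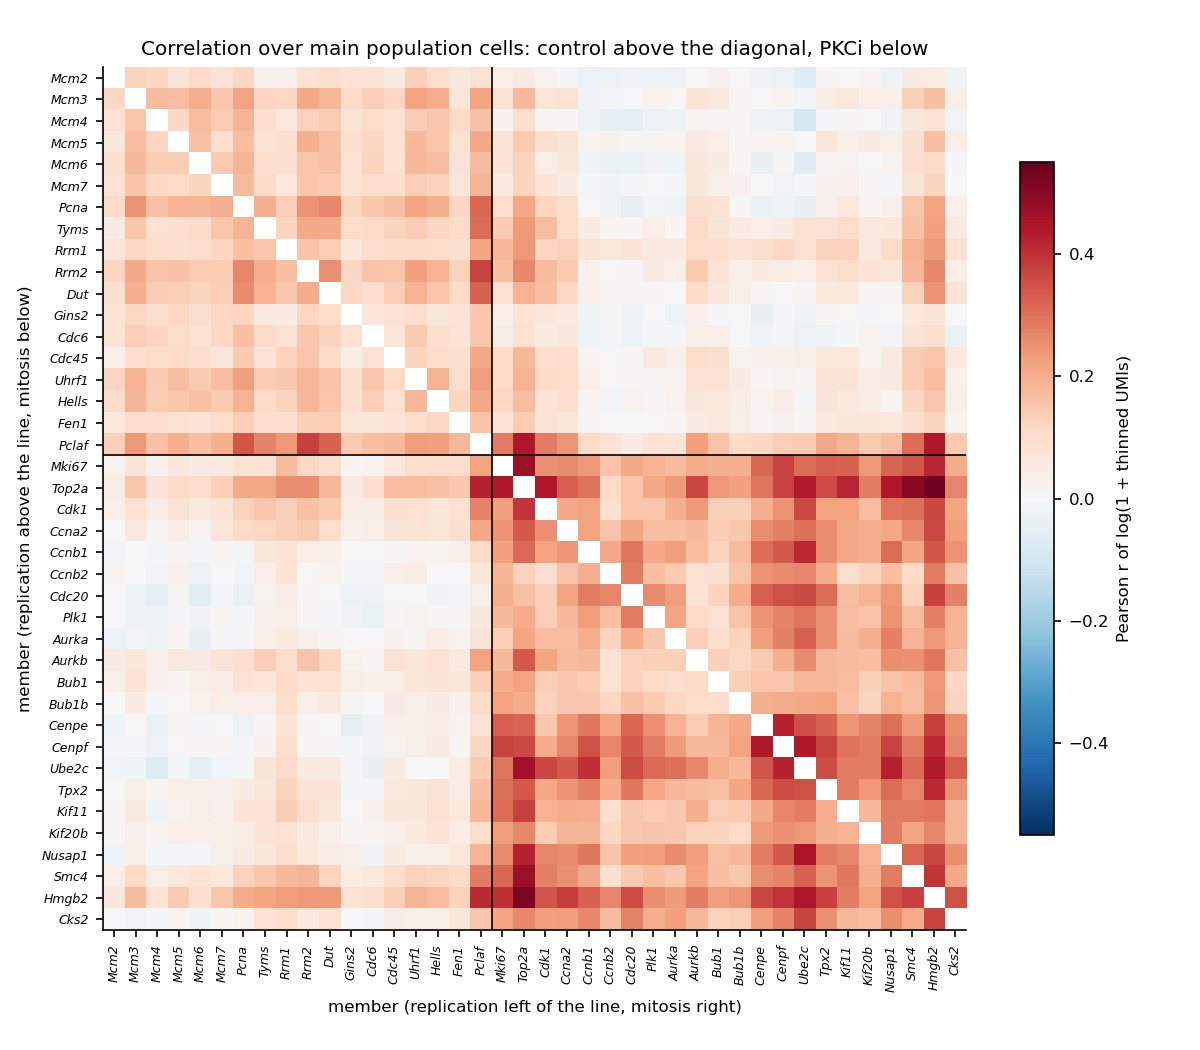
Pearson correlation between each pair of members over thinned main population cells, with the control library (4857 cells) above the diagonal and the PKCi library (5176 cells) below; both axes list the members, and black lines divide replication from mitosis. The mitosis block is reddest (medians 0.24 and 0.22), and Pclaf is the replication row with the warmest colours across the line.

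Pclaf and Rrm1 were the exceptions among replication members, since their closest member belonged to the mitosis list. For Pclaf, the factor bound to Pcna, it was Top2a (0.45 and 0.43), and for Rrm1, the large subunit of ribonucleotide reductase, also Top2a (0.24 and 0.26). A further view came when mean levels in cells with mitosis members alone were divided by those in cells with replication members alone, leaving the gene itself out of its list. Mcm4 was lowest, at 0.365 in both libraries, with Mcm2 at 0.498 and 0.640 and Mcm6 at 0.584 and 0.504. Pclaf was at 3.15 and 2.58, Rrm1 at 1.59 and 1.31, and Rrm2, the small subunit, at 1.43 and 1.12. Cdc45 (0.899 and 1.38) and Tyms (0.938 and 1.27) were below 1 in the control and above it in the PKCi library, and the other 13 replication members were below 1 in both. All 22 mitosis members were above 1 in both libraries: Smc4 at 1.73 and 1.91, Cdk1 at 1.74 and 2.73, Top2a at 3.00 and 4.24 and Ube2c at 6.29 and 10.9. Higher ratios, as of Kif11, rest on as few as 3 UMIs in the cells with replication members alone and are not given. Every member was highest in cells that carried both lists, in each library.

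Genes outside the lists that followed the count of detected members were sought among 5962 genes with a mean of at least 0.1 thinned UMI. For the replication count, the 8 with the highest correlation in the library where it was lower were Ptma, Nasp, Hist1h1b, Dek, Hmgb1, Eif5a, Rad51b and Ranbp1. Ptma, which encodes prothymosin, stood at 0.40 in both libraries, and the histone chaperone Nasp at 0.35 in both. For the mitosis count they were Tubb5, Hmgb1, Hist1h1b, Ube2s, Ptma, Sgo2a, Pimreg and Hist1h2ae, with the tubulin gene Tubb5 at 0.46 in both. Ptma, Hmgb1 and Hist1h1b stood on both lists. The cell numbers are those of the correlations above, and the cells of a library share its depth and free RNA.

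Macrophage-like cells, in which all 8 macrophage markers reached 50 CPM in both libraries (summed 14322 and 12060 CPM), carried every member above the free-RNA benchmark (7.26% and 8.64%) in both libraries. In the control library Mcm2 reached 101% and Pcna 94.2% of the main population's level, and in the PKCi library 77.2% and 97.4%. Summed over cells, mitosis members were lower in the PKCi library, at 1115 against 1504 CPM, a ratio of 0.741 (0.717 to 0.766), and replication members stood at 756 against 875 CPM. Of the 22 mitosis members 10 were at least 1.5 times lower with an interval below 1, none higher, and all 22 ratios were below 1; 4.64% of 11378 genes were as much lower in these cells and 9.72% higher. The median log2 ratio was -0.51, beside 0.06 for all genes, and -0.16 for replication members, of which 1 of 18 passed, the thymidylate synthase gene Tyms.

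The lowest mitosis ratios belonged to the motor Kif20b, at 18.6 CPM in the control and 10.4 CPM in the PKCi library (ratio 0.559, 0.402 to 0.775), the spindle protein Nusap1 at 50.9 and 28.7 CPM, Ube2c at 105 and 60.1 CPM and Cenpf at 53.7 and 31.1 CPM. The other 6 that passed were Mki67 (120 and 71.6 CPM), Plk1 (23.1 and 14.2), Cenpe (45.7 and 28.3), Cdk1 (79.0 and 50.7), Top2a (190 and 125) and Tpx2 (51.2 and 33.8). Closest to equal were Hmgb2 at 330 and 304 CPM, Ccnb2 at 31.5 and 28.7, Cdc20 at 18.3 and 16.2 and Cks2 at 61.8 and 53.6. Among replication members, Tyms was at 35.5 and 21.9 CPM (0.615, 0.490 to 0.774), Pclaf at 97.6 and 66.1, Mcm4 at 32.2 and 24.2 and Rrm2 at 40.1 and 30.5. Cdc6 at 6.79 and 7.67 CPM, Mcm3 at 66.6 and 67.5, Uhrf1 at 27.6 and 27.3 and Pcna at 185 and 176 had the highest ratios.

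**Figure D4:**
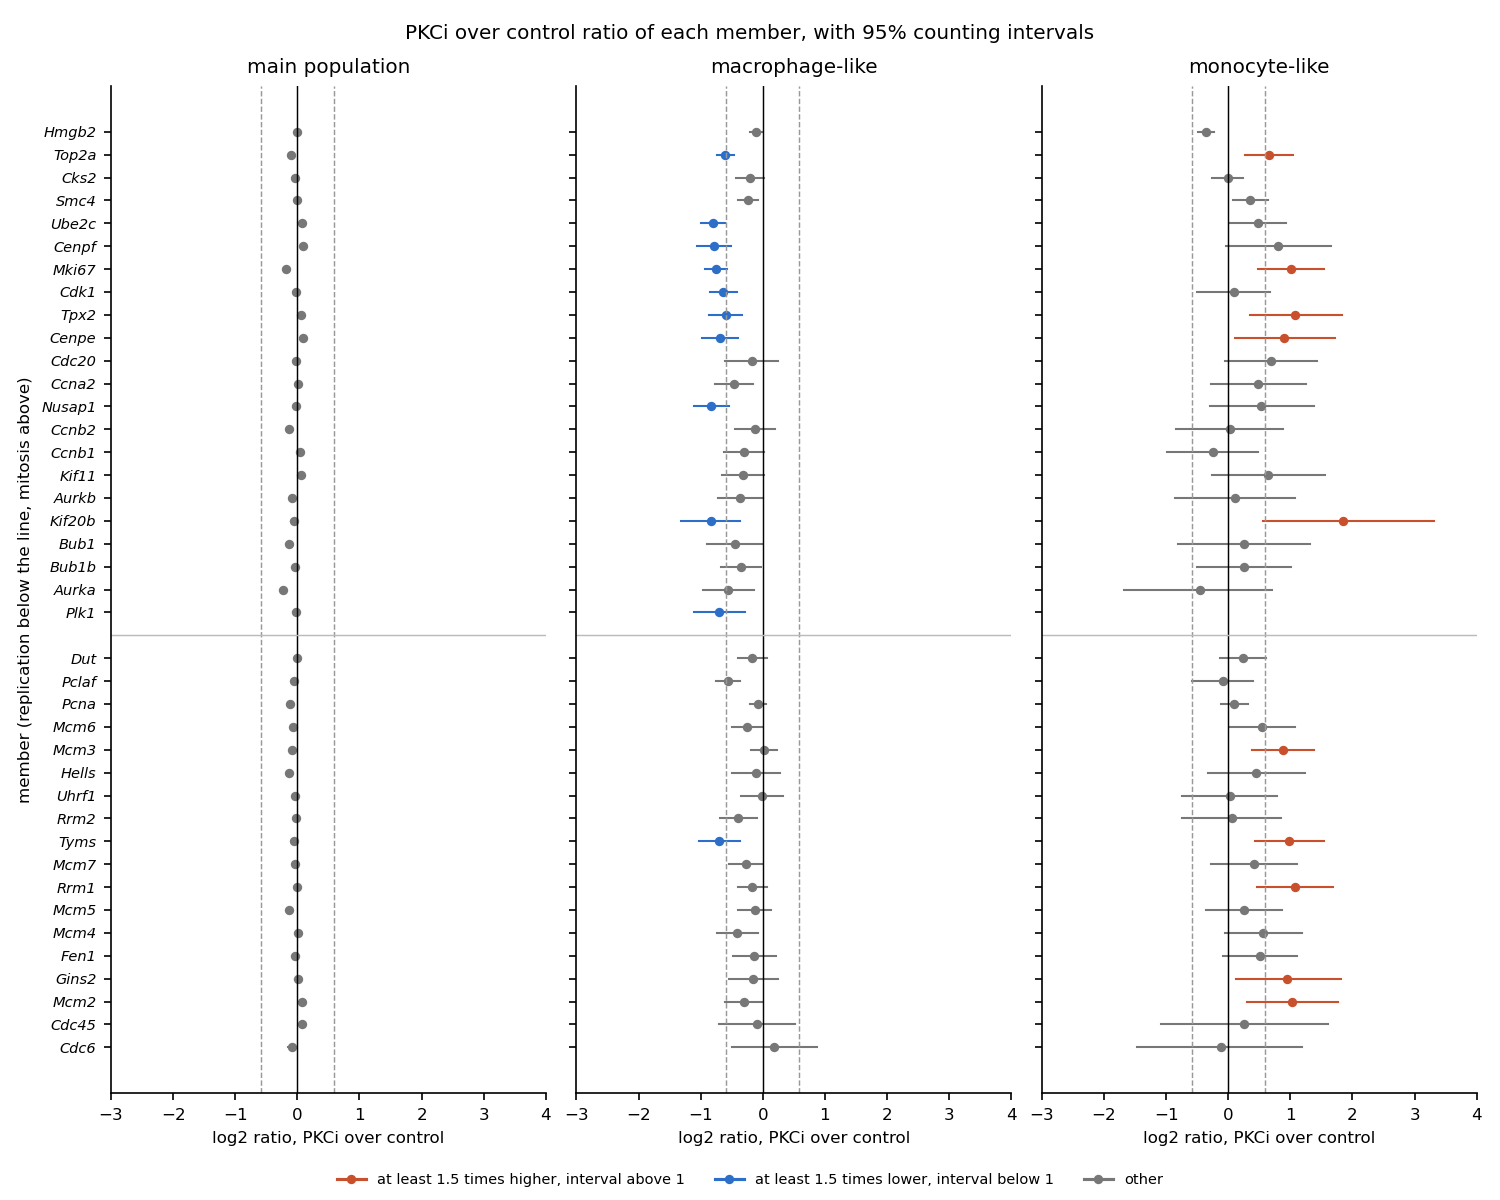
PKCi over control ratio of each member on a log2 scale (horizontal axis) in 3 classes, with exact 95% counting intervals; members (vertical axis) are ordered as in the plot of levels, dashed lines mark 1.5 times, and colour marks ratios past it whose interval excludes 1. The main population lies near 0, 10 mitosis members are lower in macrophage-like cells, and 5 replication and 5 mitosis members are higher in monocyte-like cells, where Plk1 had under 20 UMIs and is not drawn.

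The lower sums in macrophage-like cells were not seen once the deepest cells were left out, 11 of them in the control library. These 11 of 243 cells had at least as many UMIs as the median cell of the main population (38142) and held 39.2% of the class's mitosis UMIs and 25.5% of its replication UMIs in the control library. In the PKCi library 5 of 546 cells were as deep by that library's median (35245.5) and held 2.68% and 3.66%. Without these cells the median log2 ratio of mitosis members was 0.18, no mitosis member was lower by the same rule and 1 was higher, and the replication median was 0.07. This cut does not treat the libraries alike, since the class's median cell had 16553 UMIs in the control and 11551.5 in the PKCi library. It took out a larger part of the control cells, and how far that alone moved the medians was not tested. The 11 control cells expressed the 8 macrophage markers at a summed 12703 CPM, beside 14527 in the other control cells and 23.9 in the main population, and Krt8 at 48.3 CPM, beside 380 in the main population. The 5 PKCi cells stood at 5010 CPM for the markers, 73.3 CPM for Krt8 and 89.5 CPM for Rhox5. The other PKCi cells of the class stood at 12314, 40.5 and 38.6 CPM. Whether the deep cells hold more than 1 cell each was not tested. Leaving out just the top cell of each library kept a mitosis median of -0.48, with 9 members lower.

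**Figure D5:**
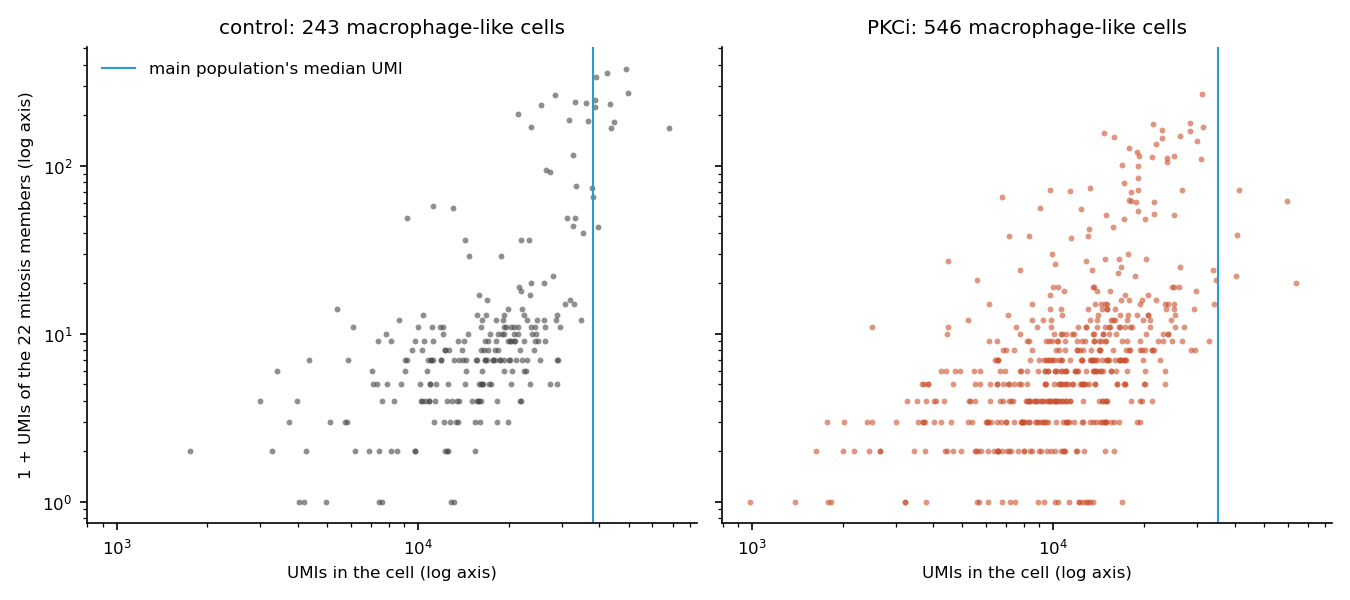
UMIs of the 22 mitosis members plus 1 (vertical log axis) against all UMIs (horizontal log axis) in each macrophage-like cell, control left (243 cells) and PKCi right (546 cells); the blue line is the main population's median UMI count. In the control library 11 cells lie past the line (38142 UMIs), with 42 to 378 mitosis UMIs. In the PKCi library 5 cells lie past it (35245.5 UMIs), with 19 to 71, and the cells highest in mitosis UMIs lie to its left.

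Counted by cells, the macrophage-like class gave different answers with depth matched and unmatched. Thinned to 5000 UMIs, at least 3 mitosis members were found in 80 of 232 control cells, or 34.5% (28.4 to 41.0), and in 193 of 496 PKCi cells, or 38.9% (34.6 to 43.4), a difference of 4.43 points (-3.16 to 11.7), and 32.8% and 34.1% had at least 3 replication members. Without thinning, when control cells were deeper (medians of 16553 and 11551.5 UMIs), the mitosis share was 73.7% and 65.6%, a difference of -8.09 points (-14.7 to -1.06), and the replication share 61.3% and 58.8% (-2.53, -9.76 to 4.93). At 10000 UMIs per cell the replication share was 10.4 points higher in the PKCi library, so no direction is read from these shares. Both lists were detected in 45 of 232 control and 102 of 496 PKCi cells, and those cells had medians of 31194 and 16061 UMIs, beside 16120 and 12146.5 in cells with neither. In both libraries the cells with both lists were thus the deeper ones. A sum over cells weights each cell by its depth, and the part of this in the lower sums was not tested. The mean of single-cell CPM gave a mitosis median of -0.22. Control neutrophil-like cells thinned to 5000 UMIs, the deepest of their class, gave 35.2% (22.7 to 49.4) for mitosis members, an interval that holds both macrophage-like shares. Neutrophil-like cells expressed the mitosis members Hmgb2 and Cks2, so this share is not a floor set by free RNA. For replication members they gave 13.0% (5.37 to 24.9), below both macrophage-like shares. Without such a floor, the mitosis share of macrophage-like cells is not read as a share of dividing cells.

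Monocyte-like cells had lower levels, some of them at the benchmark. The class had 7 of 8 monocyte markers at 50 CPM (summed 2598 and 1855 CPM) but also 6 of 8 macrophage markers (1807 and 1268 CPM), whose part in these results was not tested. Of the 40 members, 13 exceeded it (8.88% and 7.90%) in both libraries with their whole interval, 12 in 1 library and 15 in neither. Highest above it were Pcna, at 42.5% and 49.4% of the main population's level, Hmgb2 at 39.0% and 30.8%, Fen1 at 26.8% and 39.4%, and Cks2 at 24.6% and 25.1%. In this class 10.5% of 10250 genes were at least 1.5 times higher in the PKCi library with an interval apart from 1 and 6.24% lower, and the median of all genes was 0.14 on the log2 scale. Against that, 5 of 18 replication members were higher and none lower (median 0.43), and 5 of the 21 measured mitosis members were higher and none lower (median 0.47). Single members ranged from -0.11 to 1.06 for replication and from -0.43 to 1.78 for mitosis.

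The replication members that passed were Rrm1, at 8.82 CPM in the control and 18.5 CPM in the PKCi library (ratio 2.10, 1.38 to 3.23), Mcm2 at 6.44 and 13.1, Tyms at 11.0 and 21.7, Gins2 at 5.01 and 9.69 and Mcm3 at 13.8 and 25.4. The mitosis members that passed were Kif20b, at 1.67 and 5.98 CPM from 7 and 21 UMIs, Tpx2 at 6.20 and 13.1, Mki67 at 11.9 and 23.9 (ratio 2.01, 1.40 to 2.91), Cenpe at 5.48 and 10.3 and Top2a at 23.8 and 37.6. In the control library these 5 mitosis members stood between 3.61% (Kif20b) and 7.38% (Mki67) of the main population's level, below the benchmark of 8.88%, and in the PKCi library Top2a (8.29%) and Cenpe (8.93%) did not exceed the benchmark of 7.90% with their whole interval. Of the 5 replication members, Rrm1, Mcm2 and Tyms exceeded it in both libraries and Gins2 and Mcm3 in 1. Lowest among mitosis members were Aurka at 4.29 and 3.13 CPM, Hmgb2 at 315 and 246 (0.782, 0.717 to 0.853), Ccnb1 at 9.77 and 8.26 and Cks2 at 70.6 and 70.4. Lowest among replication members were Cdc6 at 3.10 and 2.85 CPM, Pclaf with a ratio of 0.939, Uhrf1 at 8.11 and 8.26 and Rrm2 at 7.39 and 7.69. The mitosis sum, to which Hmgb2 gave the most, was 585 and 598 CPM, a ratio of 1.02 (0.964 to 1.08), unlike the median. The replication sum was 262 and 339 CPM, a ratio of 1.30 (1.19 to 1.41). With the top cell of each library left out, 3 mitosis and 6 replication members were higher. At clustering resolution 1.5 it was 1 mitosis member and 2 of the 18 replication members, no clear excess over the 10.5% of all genes higher at the main setting. The share of all genes is not given for these settings. Thinned shares with at least 3 members were 9.86% of 426 and 14.6% of 322 cells for replication and 23.2% and 24.8% for mitosis members, and without thinning 21.1% and 24.2%, and 37.4% and 34.2%.

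Neutrophil-like cells expressed Hmgb2 and Cks2 and few other members. Hmgb2 stood at 612 CPM in the control and 437 CPM in the PKCi library, 75.9% and 54.7% of the main population's level, and Cks2 at 228 and 264 CPM, 79.6% and 94.1%. The benchmark was 16.4% and 13.1%. Different clusters made up the class in the libraries: one held 4 control and 91 of the 170 PKCi cells, another 139 and 40, and their part in the differences was not tested. Of the 40 members 36 did not exceed it with their whole interval in either library, and Pcna and Smc4 did so in the PKCi library. Measured in both libraries together with at least 20 UMIs were 5 replication and 6 mitosis members. Of these Smc4, at 35.9 and 66.0 CPM from 36 and 24 UMIs, was higher by the rule, in a class where 18.3% of 4918 genes were higher and 6.57% lower. The other mitosis ratios ran from 0.715 for Hmgb2 through Cdk1 (0.960), Cks2 (1.16) and Ube2c (1.49) to Top2a (1.88, 0.951 to 3.62). Among replication members they ran from Dut (0.646, 0.302 to 1.26) through Mcm6 (0.812), Mcm5 (0.920) and Pclaf (1.21) to Pcna (1.69, 0.945 to 2.95).

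Classes with under 100 cells per library are given as values. T-like cells carried replication members at 953 and 1002 CPM and mitosis members at 2665 and 2094 CPM, with Hmgb2 at 1194 and 758 CPM and Mki67 at 118 and 133. NK-like cells carried them at 937 and 987 and at 1673 and 1429 CPM. In dendritic-like cells the sums were 217 and 693 CPM for replication and 340 and 2029 CPM for mitosis members, from 27 and 67 cells. Their top cell held 14.5% and 24.2% of the mitosis UMIs, and without it the mitosis ratio was 5.39 instead of 5.96. A few cells carried most of the PKCi sum: the 10% of its cells (rounded down) with the most held 79.9% of the mitosis and 61.4% of the replication UMIs, against 24.1% and 34.0% in the control library. Top2a had 2 UMIs in the control and 121 in the PKCi dendritic-like cells, and the free-RNA benchmark was also higher there, at 8.62% and 17.1%. Of 8 dendritic markers, 5 reached 50 CPM in the control and 8 in the PKCi library, with sums of 2472 and 2606 CPM. Whether the class held the same mix of cells in both libraries was not tested. Endothelial-like cells had lower sums in the PKCi library, 1252 and 757 CPM for replication and 2422 and 1269 CPM for mitosis members, and held 5 of 6 pericyte markers beside their own 7. Their top cell held 34.8% and 25.8% of mitosis UMIs, the ratio without it was 0.564 instead of 0.524, and the benchmark was 10.7% and 26.8%. Counting intervals treat each UMI as independent, which UMIs of 1 cell are not, so none is given for these classes. The same limit holds for the intervals of the larger classes: in control macrophage-like cells the top 10% of cells held 72.0% of the mitosis UMIs.

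Other genes of the same machinery were taken from 2 further lists, 50 replication genes and 59 mitosis genes, chosen with earlier results of these data known. In the main population none of either list passed in either direction. The origin recognition gene Orc1, at 11.1 and 8.32 CPM (0.750), Gins1 and Rpa3 had the lowest replication ratios and Gins3, Ccne1 and Rfc4 the highest. In the mitosis list, the checkpoint kinase Ttk, at 12.1 and 9.86 CPM, Kpna2 and Pttg1 were lowest and Ect2, at 82.9 and 99.7 CPM, Stmn1 and Aspm highest. In macrophage-like cells 6 of 50 replication genes were lower and 1 higher, and 13 of 58 measured mitosis genes lower and 1 higher, beside 4.64% lower and 9.72% higher over all genes. There the phosphatase Cdc25c, at 4.98 and 1.99 CPM, Hmmr, at 37.1 and 15.5 CPM, and Kif4 were lowest and Ckap2l, at 32.2 and 67.8 CPM, highest, above Arhgap11a and Kif22; these sums include the 11 deep control cells. The lowest replication genes there were Tk1, Prim1 and Timeless and the highest Cdc7, E2f2 and Wdhd1. In monocyte-like cells 13 of 46 measured mitosis genes were higher and none lower, beside 10.5% and 6.24% of all genes, and 2 of 41 replication genes higher, a share below that of all genes, and 1 lower, which was the licensing factor Cdt1 at 22.4 and 14.5 CPM.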

How the data were processed

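RNA was measured in 2 libraries of dissociated tumour cells, passed through a 70 micrometre filter and made with 10x 3' chemistry per the labels' protocols. The authors deposited a count of UMIs per gene and barcode, made with Cell Ranger 7.0.0 per the file headers. The submitters' processing notes name GRCm38 and Seurat. Whether intronic reads were counted is not given in the sources used here.

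A barcode was dropped if it had fewer than 500 genes, which took 247 in the control and 200 in the PKCi library, or more than 20% mitochondrial UMIs, which took 61 and 47 more. Doublets were called with Scrublet in scanpy 1.11.5 above a score of 0.3 in both libraries, which removed 110 (1.72%) and 132 (1.83%) barcodes. That score was set after seeing the score distributions, because the automatic threshold called almost none in the control library. Cells were clustered together (2000 variable genes, 30 components, 15 neighbours, Leiden resolution 1.0) without 251 cell cycle and histone genes. A cluster was named for the class with the highest score over its 5 to 8 markers where at least 3 reached 50 CPM and the score reached 0.35, with limits on Krt8 and on depth. Naming thresholds were set after seeing the clusters, and 165 control and 219 PKCi cells stayed unnamed.

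UMIs were summed per class and library and scaled to a sum of 1000000 (CPM). Levels carry exact Poisson intervals and ratios exact conditional binomial intervals, shares exact Clopper-Pearson intervals and differences of shares Newcombe intervals, all at 95%. They take UMIs to be independent draws, so they hold counting error alone. With 1 library per group no test between groups was made. Log2 ratios had 0.5 count added per sum, and list medians used members whose UMIs in the pair of libraries came to 20 or more. In the main population, and in the other classes with at least 100 cells per library, the members with the 4 highest and 4 lowest ratios of each list were named, with others named by role or by passing 1.5 times. Of the other lists the 3 highest and 3 lowest were named. A member counted as above free RNA where its whole interval was. The ratio interval and the 1.5 times rule were tested on simulated counts drawn independently, which UMIs of 1 cell are not. Thinning was checked on cells of these data, and the other steps were not tested in this way. The members, lists and comparisons were chosen with earlier results of these data known, and 1 gene of the other mitosis list, Sgol1, was not found by symbol.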

Additional observations from a re-analysis of the deposited data

How the results depend on the processing

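No paired analysis was possible because each group had 1 library, and for the same reason no library could be left out. Of 192 values recomputed under 16 planned settings and 2 added after seeing the data, 158 were close to the reported one, which for the 76 counts of members means within 1.5 times and for the others within the width from value to bound of a counting interval (for medians that of the typical member, for correlations that of 1 pair). The counts under other clusterings were also added after seeing the data. Many counts compared 0 with 0, among them every count in the main population, so their closeness says little. The widths were also broad in the host classes: the monocyte-like mitosis median ran from 0.20 to 1.18 and still counted as close. With cell cycle genes kept in the clustering, the replication median in the main population was -0.077 and the mitosis median in macrophage-like cells -0.85, where 4 replication and 17 mitosis members were then lower. Keeping called doublets gave a macrophage-like replication median of -0.46, with 6 and 16 members lower, and a limit of 10% mitochondrial UMIs a mitosis median of -0.82, with 4 and 17. At clustering resolution 0.6, 0 replication and 4 mitosis members were lower in macrophage-like cells. Without cells at or above the main population's median UMI count, 0 and 0 were lower, 1 mitosis member was higher and the mitosis median was 0.18. In monocyte-like cells, resolution 0.6 gave 9 replication and 16 mitosis members higher, resolution 1.5 gave 2 and 1, and 9 mitosis members were higher with cell cycle genes kept or with the 10% limit, and 3 without the top cells. For none of these settings is the share of all genes that passed given. The difference in the main population's replication share was 0.68 points at 3000 UMIs per cell, and that of its mitosis share 0.11 points when at least 5 members were required. The macrophage-like replication share differed by 10.4 points at 10000 UMIs, by -6.20 with cell cycle genes kept and by -6.06 with doublets kept. At 10000 UMIs the median correlations were 0.21 within replication, 0.35 within mitosis and 0.071 between in the control library, and 0.22, 0.33 and 0.071 in the PKCi library. The cause of these shifts was not tested.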
